A study of Mus musculus with 9 samples.

Results

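The histone genes examined here were the 79 protein-coding genes of GENCODE release M1 whose symbols begin with Hist1h, Hist2h, Hist3h or Hist4h, or with H2af, H3f3 or H1f, out of 22367 protein-coding genes on the nuclear chromosomes. The first 4 prefixes gave 67 clustered genes and the last 3 gave 12 variant genes. *Cenpa*, the centromeric H3 variant, was not taken. Membership rested on the symbol, with no binding value in the rule.

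BAP1 binding had been mapped by ChIP-Seq, which sequences the DNA fragments recovered with an antibody, in Ba/F3, a mouse line of B cell precursors kept in culture with IL-3. An antibody against BAP1 (52.8 μg) was used in wild type cells, and an antibody against the FLAG epitope (5 μg) in cells that stably express triple-FLAG-tagged murine BAP1 under puromycin selection. Both immunoprecipitations went into a single list of 13164 intervals of 200 bp on the mm9 build, with no score and no record of the sample in which a peak was called. With 1 pooled list, no replicate error exists and no test between gene lists was made. The values below are counts, positions and 95% Wilson intervals, which cover counting error only, and the sequencing depth is unknown. H2AK119ub profiles from the wild type and from *Bap1* knockout Ba/F3 cells, and the input DNA of the series, were not analysed here.

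BAP1 is a nuclear deubiquitinase that removes ubiquitin from histone H2A, the mark H2AK119ub, so histones are the substrate of the enzyme as well as the product of these genes. Clustered histone genes are transcribed mainly in S phase to supply newly replicated DNA, lie in dense groups with adjoining H2A and H2B genes transcribed away from each other, and give short unspliced mRNAs that end in a stem-loop instead of a poly(A) tail. Variant histones such as H2A.Z and H3.3 come from genes scattered over the genome, most with introns, and are made throughout the cell cycle.

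Sequences from the mm9 genome show the kinds of start site behind the counts that follow. The first 6 are the 100 bases upstream of a transcription start site (TSS), read 5′ to 3′ on the strand of the gene, chosen to show a linker histone gene, an H2B gene, an H4 gene with a peak, an H4 gene without a peak and both variants H2A.X and H2A.J. Capitals mark matches, on either strand, to the motifs listed further on. The linker histone gene *Hist1h1e* (chr13:23714372-23714471, minus strand) has a TATA box between a pair of GC boxes, with a BAP1 peak centered 80 bp upstream of its start. The H2B gene *Hist1h2bm* (chr13:21813813-21813912, plus strand) has a pair of CCAAT boxes and an octamer 25 bases before its start, and peaks centered 258 bp upstream and 116 bp downstream. The H4 genes *Hist1h4i* (chr13:22133222-22133321, minus strand), with 2 peaks, and *Hist1h4f* (chr13:23643518-23643617, minus strand), with none within 1 kb, each show a GC box at the far end of the stretch. *H2afx* (chr9:44142698-44142797, plus strand), the variant phosphorylated at DNA breaks, has a CCAAT box and a TATA box, whereas *H2afj* (chr6:136756669-136756768, plus strand) has a pair of CCAAT boxes and a pair of GC boxes.
Hist1h1e: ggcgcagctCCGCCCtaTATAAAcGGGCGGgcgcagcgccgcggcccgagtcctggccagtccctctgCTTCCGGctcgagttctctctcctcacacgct
Hist1h2bm: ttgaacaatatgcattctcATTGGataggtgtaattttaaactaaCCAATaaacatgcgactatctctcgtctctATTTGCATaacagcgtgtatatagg
Hist1h4i: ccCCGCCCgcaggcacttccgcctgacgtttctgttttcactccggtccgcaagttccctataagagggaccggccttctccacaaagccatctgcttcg
Hist1h4f: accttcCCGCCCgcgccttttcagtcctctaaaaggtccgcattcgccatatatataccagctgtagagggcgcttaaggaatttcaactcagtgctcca
H2afx: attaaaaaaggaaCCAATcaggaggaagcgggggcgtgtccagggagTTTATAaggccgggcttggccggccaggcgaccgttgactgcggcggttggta
H2afj: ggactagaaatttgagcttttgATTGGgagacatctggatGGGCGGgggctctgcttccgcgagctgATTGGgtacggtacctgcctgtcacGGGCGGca

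A pair of whole peaks shows the contrast in placement that recurred among the clustered genes. The peak between the diverging starts of *Hist1h2ag* and *Hist1h2bj* (chr13:22134860-22135059, plus strand) lies in the intergenic stretch, has a GC content of 41.5%, and carries 5 CCAAT boxes and the cAMP response element letters. The peak at *Hist1h3h* (chr13:21809539-21809738, plus strand) lies wholly within the coding sequence of this H3 gene, has a GC content of 71.5%, and holds 1 GC box match and no CCAAT box.
Peak between Hist1h2ag and Hist1h2bj: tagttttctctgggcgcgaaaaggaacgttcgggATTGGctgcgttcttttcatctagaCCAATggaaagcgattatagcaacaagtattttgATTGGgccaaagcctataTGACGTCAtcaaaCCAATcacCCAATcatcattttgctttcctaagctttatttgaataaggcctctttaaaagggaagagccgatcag
Peak in Hist1h3h: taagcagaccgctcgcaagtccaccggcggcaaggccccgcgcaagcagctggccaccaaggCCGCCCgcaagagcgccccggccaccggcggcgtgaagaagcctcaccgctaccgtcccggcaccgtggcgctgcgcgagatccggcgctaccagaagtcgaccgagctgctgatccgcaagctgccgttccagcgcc

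A gene was counted as having a gene-proximal peak when the middle of a peak lay within 1 kb of any of its annotated TSSs. By this measure, 61 of the 79 histone genes had a peak (77.2%, interval 66.8 to 85.1), beside 39.6% of all protein-coding genes. Among the clustered genes, 54 of 67 had a peak (80.6%, 69.6 to 88.3), and among the variant genes 7 of 12 (58.3%, 32.0 to 80.7). The difference between the kinds was 22.3 percentage points, with an interval from -2.65 to 49.7 that includes 0. Whether 0 was included depended on the choices made: it lay outside the interval with a window of 2 kb (2.09 to 53.9) or 5 kb (11.8 to 62.3), with 1 TSS per gene (3.62 to 56.4) and with distances from the coding start (8.79 to 61.2). Histone promoters are CpG-rich, and genes with CpG-rich promoters had peaks more often in this list. The observed over expected CpG ratio was taken within 500 bp of 1 TSS per gene, the one nearest the coding sequence. A peak could lie at any TSS. Of the protein-coding genes with a ratio of 0.6 or more, 69.5% had a peak, beside 22.1% of the others. Of the 65 clustered genes above that ratio, 53 had a peak (81.5%, 70.4 to 89.1). This interval treats genes that share a peak as separate. With all clustered genes on the same nearest peak counted as 1, the share was 77.2% (64.8 to 86.2), an interval that includes the share of all CpG-rich genes. Only genes with a peak are merged in this count, so it can only lower the share. It covers all 67 clustered genes, and the share of CpG-rich genes was not counted in this way, so the comparison does not settle whether the shares differ. Of the 9 variant genes with a CpG ratio of 0.6 or more, 7 had a peak (77.8%, 45.3 to 93.7).

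**Figure D1:**
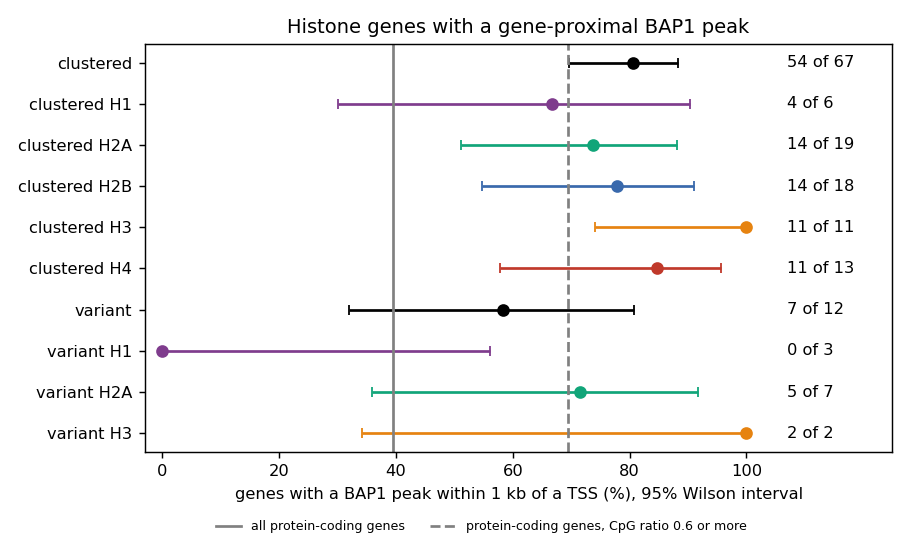
Share of histone genes with a BAP1 peak within 1 kb of a TSS (x axis, percent) for each kind and class; points are the share, bars the 95% Wilson interval, and the text at the right the count. All 11 clustered H3 genes and both H3.3 genes had a peak, none of the 3 variant H1 genes did, and the vertical lines mark the 39.6% of all protein-coding genes (solid) and the 69.5% of CpG-rich ones (dashed). For 2 of the 11 clustered H3 genes, and for *H3f3a*, the nearest peak lay closer to the start of another gene. The same held for 8 of 14 H2B, 2 of 14 H2A and 1 of 11 H4 clustered genes with a peak. *H1f0*, a linker variant that the annotation lists as a pseudogene, was not counted and had a peak.

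Clustered genes of every class had peaks. The core histone classes gave 11 of 11 H3 genes (interval from 74.1%), 11 of 13 H4 genes (84.6%, 57.8 to 95.7), 14 of 18 H2B genes (77.8%, 54.8 to 91.0) and 14 of 19 H2A genes (73.7%, 51.2 to 88.2). The linker histone H1 genes, which bind the DNA between nucleosomes, gave 4 of 6 (66.7%, 30.0 to 90.3). The intervals of all 5 classes overlap. For 2 of the 11 H3 genes, *Hist1h3f* and *Hist1h3c*, the nearest peak lay closer to the start of another gene. The same held for 8 of the 14 H2B genes with a peak, 2 of the 14 H2A genes and 1 of the 11 H4 genes.

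Of the 13 clustered genes without a peak, 10 had their nearest peak between 1358 and 5715 bp away, and 3 over 100 kb away. The H2A genes *Hist1h2ai* and *Hist1h2af* had their nearest peak at 1358 and 1395 bp, and the H2B gene *Hist1h2bl* at 1627 bp. The linker histone gene *Hist1h1b* had its nearest peak at 2620 bp. The diverging pair *Hist1h2ae* and *Hist1h2bg* had theirs at 3075 and 2899 bp, the H4 genes *Hist1h4f* and *Hist1h4b* at 3306 and 4393 bp, and *Hist3h2ba* at 5715 bp. *Hist1h2al*, an H2A gene that stands alone on chromosome 13, was 101930 bp from its nearest peak. The remaining 3 are known mainly from testis: the linker histone gene *Hist1h1t* at 2616 bp, and the pair *Hist1h2ba* and *Hist1h2aa* at 170438 and 170744 bp. Just inside the window lay *Hist1h3f* at 812 bp, *Hist1h3c* at 683 bp and *Hist1h2be* at 564 bp. *Hist1h2be* is a special case, since its annotated starts lie 35138 bp or more upstream of its coding sequence, so that its 564 bp refers to a peak it shares with the neighboring *Hist1h1e*. A different peak (chr13:23677820-23678019) was centered 95 bp upstream of its coding start and was not counted by the TSS rule.

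Among the variant genes, 5 of 7 H2A genes and both H3.3 genes had a peak, and 0 of 3 linker histone genes did. The linker variant *H1f0*, which this annotation lists as a pseudogene, was not among the 3 and had a peak 317 bp upstream. *H2afz* and *H2afv*, both encoding H2A.Z, a variant found at the nucleosomes that flank promoters, had 2 peaks each, the nearest centered 37 bp downstream and 4 bp upstream of a TSS. The H3.3 genes *H3f3a* and *H3f3b* had their nearest peak 72 and 26 bp upstream, and *H3f3b* had another 165 bp downstream. The *H3f3a* peak lay closer to the start of another annotated gene, *Gm16067*. *H2afx* had a peak 21 bp downstream, *H2afj* 14 bp upstream, and *H2afy*, which encodes macroH2A1, 20 bp upstream. The other 5 had no peak nearby. *H2afy2*, the gene of macroH2A2, was 68675 bp from its nearest peak and *H1fx*, a linker variant, 63829 bp, although both have CpG-rich promoters with ratios of 0.780 and 0.892. *H1foo* (oocyte), *H1fnt* (testis) and *H2afb1* (testis) were 50108, 111609 and 19137 bp away, with CpG ratios of 0.254, 0.439 and 0.290.

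The 6 histone genes known mainly from testis or oocyte, *Hist1h1t*, *Hist1h2ba*, *Hist1h2aa*, *H1fnt*, *H1foo* and *H2afb1*, had a peak in 0 of 6 cases. Without them the shares were 54 of 64 clustered genes (84.4%, 73.6 to 91.3) and 7 of 9 variant genes (77.8%, 45.3 to 93.7), and the difference between the kinds narrowed to 6.60 percentage points.

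Placement relative to the TSS differed in the values of the clustered and variant genes. Over the 7 variant genes with a peak, the middle of the nearest peak lay between -72 and 37 bp of a TSS, with a median of -14 bp (negative is upstream), and each of these peaks covered the TSS. Over the 54 clustered genes it lay between -812 and 292 bp, with a median distance of 117.5 bp in either direction, and the peak covered the TSS at 24 (44.4%). Over all protein-coding genes with a peak, the median distance was 46 bp and the peak covered the TSS at 77.8%. The other single-exon genes with a peak had a median distance of 116 bp, close to that of the clustered genes. The number of annotated starts moves these values, since the nearest of all starts was used: 62 of the 67 clustered genes have 1 annotated TSS, whereas *H2afz* and *H2afy* have 7 each, *H3f3a* 5 and *H3f3b* 4. With 1 TSS per gene, here that of the longest transcript, *H3f3b* had no peak within 1 kb. The other 6 variant genes then had theirs between -110 and 87 bp, 5 of them covering the TSS, with a median distance of 55.5 bp. The peak then covered the TSS at 42.6% of the clustered genes and 67.0% of all protein-coding genes with a peak.

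**Figure D2:**
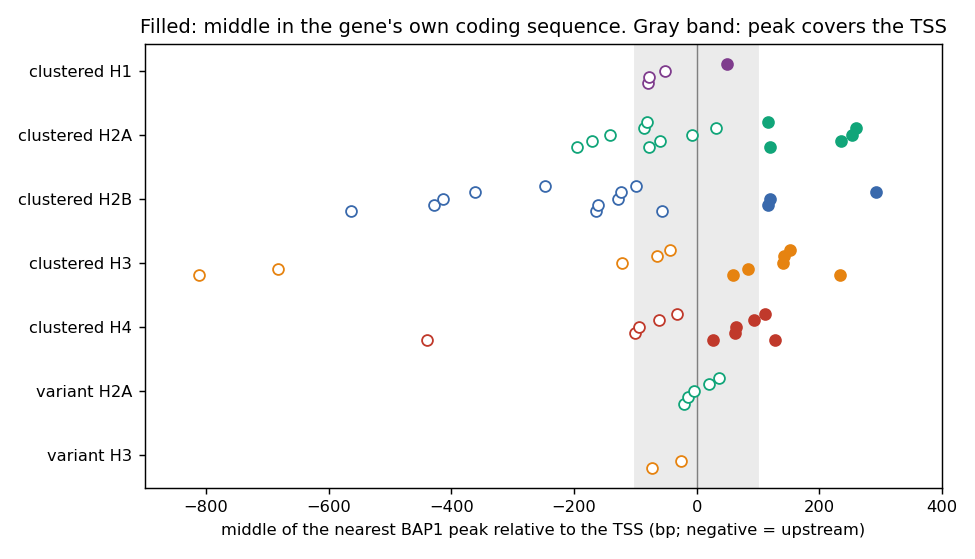
Distance in bp from a TSS to the middle of the nearest BAP1 peak (x axis, negative upstream) for each histone gene with a peak, by class; filled points have the middle in the gene's own coding sequence, and points in the gray band belong to peaks that cover the TSS. All 7 variant genes sit in the band, whereas the clustered genes spread from -812 to 292 bp and 21 of 54 are filled.

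In 21 of the 54 clustered genes (38.9%), the middle of the nearest peak lay in the gene's own coding sequence, beside 3.16% of all protein-coding genes with a peak and 0 of the 7 variant genes. Short genes without introns have their coding sequence close to the start. Over the 190 other single-exon protein-coding genes with a peak, 15.8% had the middle in coding sequence and 44.7% of the peaks covered the TSS, so the share covering the TSS was near that of the clustered genes while the coding share was lower. By class, the middle was in coding sequence at 6 of 11 H3 genes, 6 of 11 H4 genes, 5 of 14 H2A genes, 3 of 14 H2B genes and 1 of 4 H1 genes. The H3 genes with coding peaks included *Hist1h3h* at 142 bp, whose peak sequence is printed above, and *Hist1h3b* at 234 bp. The H2B genes had a median of -144.5 bp, with 3 of 14 nearest peaks downstream and 2 of 14 covering the TSS. For 8 of the 14, the nearest peak lay closer to the start of another gene, in most cases the H2A partner, so their positions are in part those of H2A peaks. The nearest peak was also closer to the start of another gene at 2 of 14 H2A genes, 2 of 11 H3 genes, 1 of 11 H4 genes and 0 of 4 H1 genes.

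Annotated starts bear on these distances. In 10 of the 67 clustered genes the annotated TSS is the first base of the coding sequence itself, so that their 5′ untranslated region is missing from the annotation. Measured from the coding start instead, 53 of the 67 clustered genes and 5 of the 12 variant genes had a peak within 1 kb, and the nearest peak of the bound clustered genes had a median of -87 bp.

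The clustered genes were grouped into loci wherever neighboring histone genes lay within 100 kb of each other. The long Hist1 locus (chr13:23622919-23856283) holds 29 histone genes, 23 of them with a peak, and 29 peaks, which is 12.4 per 100 kb beside 0.405 over chromosome 13. Another Hist1 locus (chr13:21807632-21929399) holds 18 genes, 15 with a peak, and 14 peaks, or 11.5 per 100 kb. The Hist2 locus (chr3:96023839-96082924) holds 9 genes, all with a peak, and 11 peaks, or 18.6 per 100 kb beside 0.354 over chromosome 3. The loci were cut at their outer histone genes and are dense in starts. No comparison at matched gene density was made. In a small Hist1 locus (chr13:22126982-22135545) all 5 genes had a peak, sharing 4 peaks. Nearly every peak in these loci had its middle within 1 kb of a histone TSS counted here, with 27 of the 29 in the long Hist1 locus and 13 of the 14 in the other. The nearest peak covered the TSS at 13 of the 23 bound genes in the long locus and at 4 of the 15 in the other. The iron-metabolism gene *Hfe*, which lies inside the long Hist1 locus, had no peak within 1 kb and its nearest at 7155 bp. The other non-histone coding gene there, *Gm17658*, had a peak 42 bp upstream of its start, and this is the peak counted for the H4 gene *Hist1h4d*, whose start is 94 bp from it. The single gene *Hist4h4* on chromosome 6 had a peak 61 bp upstream of its start, and *Hist3h2a* on chromosome 11 had 2, the nearest 59 bp upstream. Its annotated start is also that of *Trim17*, so the peaks of *Hist3h2a* cannot be assigned to either gene alone.

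**Figure D3:**
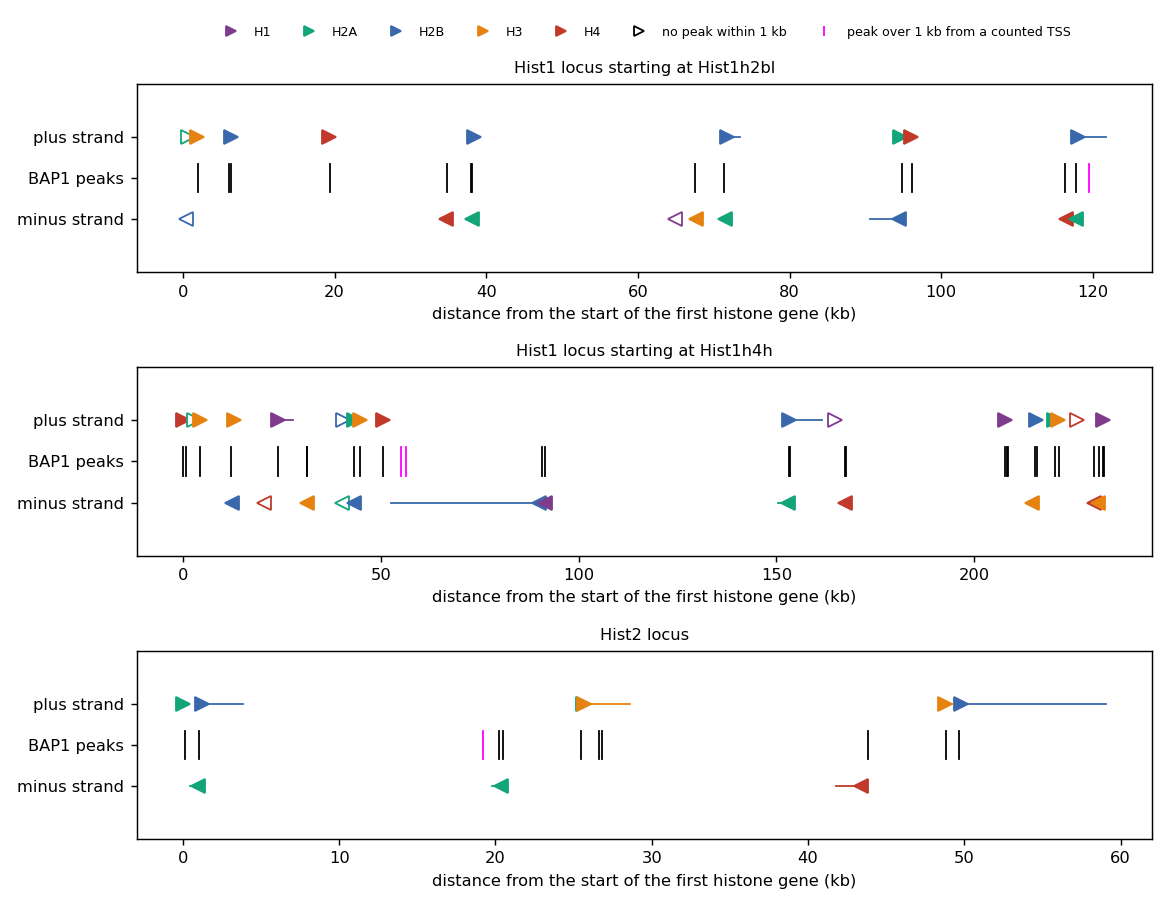
Histone genes (arrowheads at the TSS, pointing in the direction of transcription, with lines over the gene body) and the BAP1 peaks within 1 kb of their starts (black ticks) in the 2 large Hist1 loci and the Hist2 locus, with the other peaks there as magenta ticks; the x axis is the distance in kb from the first gene. Open arrowheads are genes without a peak, and 1, 2 and 1 peaks in the loci from top to bottom lie over 1 kb from the counted histone starts; the start of Hist2h2aa1 is hidden behind that of Hist2h3c1.

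Because starts lie close together, genes shared peaks. The 61 histone genes with a peak drew on 67 distinct peaks, of which 49 lay near 1 member and 18 near 2. At least 2 peaks were found at 19 of the 54 clustered genes (35.2%) and 3 of the 7 variant genes (42.9%), beside 25.5% of all protein-coding genes with a peak. Only *Hist1h1c* and *Hist2h3c1* among the histone genes had 3. At the linker histone gene *Hist1h1c* the middles lay 51 bp upstream and 391 and 844 bp downstream of the TSS. At the H3 gene *Hist2h3c1* they spanned 1341 bp. The most upstream of them lay 1384 bp from the TSS nearest to the others and was counted only through another annotated TSS of the gene. It was shared with the H2A gene *Hist2h2aa1*.

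There were 15 head-to-head pairs, meaning neighboring clustered genes transcribed away from each other with starts within 2 kb, and their starts were 176 to 1282 bp apart with a median of 251 bp. In 11 of the 15 at least 1 peak lay within 1 kb of both starts. Genes in a pair had a peak in 24 of 30 cases and genes outside pairs in 30 of 37. Of the 12 pairs made of an H2A and an H2B gene, 9 had a peak near both starts. In those 9, the peak closest to the midpoint lay between the starts in 5, inside the H2A gene in 4 and inside the H2B gene in 0. The peaks between *Hist1h2ag* and *Hist1h2bj*, printed above, and between *Hist1h2bf* and *Hist1h2ad* were centered 9.5 and 6.5 bp from the midpoint. Those between *Hist1h2ac* and *Hist1h2bc* and between *Hist2h2ac* and *Hist2h2be* were 69.5 and 43.5 bp from it. At *Hist1h2ak*, *Hist1h2an*, *Hist1h2ao* and *Hist1h2ah* the peak was inside the H2A gene, 139 to 351.5 bp from the midpoint. The pairs with no peak near both starts were *Hist1h2bl* with *Hist1h2ai*, *Hist1h2ae* with *Hist1h2bg*, the testis pair *Hist1h2ba* with *Hist1h2aa*, and *Hist1h3a* with *Hist1h1a*. In the last of these the starts are 1282 bp apart and each gene had a peak of its own.

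Histone genes are near-copies of each other, so the reads that place a peak can match several of them, and how such reads were treated is not given in the sources used here. Uniqueness was measured within 300 bp of 1 TSS per gene, the one nearest the coding sequence. The share of 50-base stretches found at a single place in the genome had a median of 72.6% over the clustered genes, 99.6% over the variants and 100% over all protein-coding genes. The stretches upstream of the start had a median of 100% in the clustered genes and those downstream, where the coding sequence lies, 40.5%. Clustered genes with a peak had a median of 71.6% and those without 80.6%. Those whose nearest peak lay in their own coding sequence had a median of 71.4%, beside 71.9% for the other bound clustered genes. The part of repeated sequence in the peak positions was not tested.

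**Figure D4:**
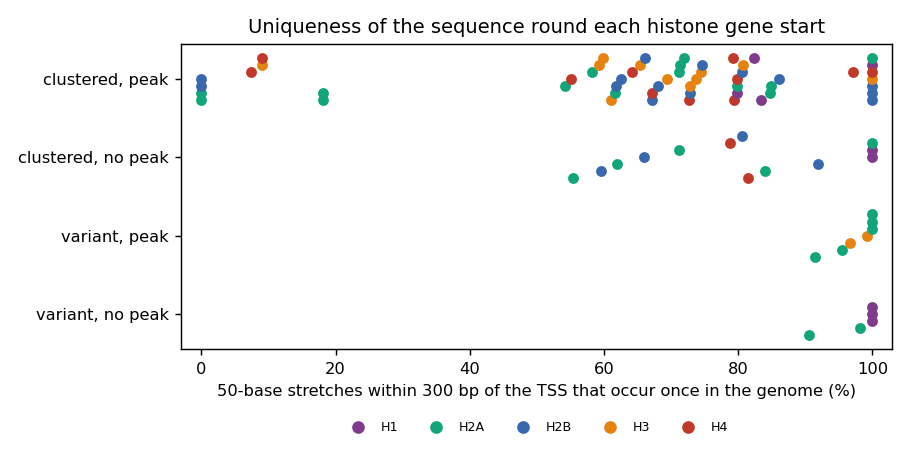
Percentage of 50-base stretches within 300 bp of the TSS that occur at a single place in the genome (x axis) for each histone gene, split by kind and by the presence of a BAP1 peak; color gives the histone class. The 9 clustered genes below 50% all had a peak, and the variant genes all lie at 90.6% or above.

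The 9 clustered genes with under 50% of such stretches all had a peak. The H2B genes *Hist1h2bq* and *Hist1h2br* matched at all 601 positions within 300 bp of the start, as did their H2A partners *Hist1h2ao* and *Hist1h2ap*, so no read within those windows can tell the copies apart. The listed peaks nonetheless differed in place, at 428 and 161 bp upstream of the H2B starts, and 260 bp downstream and 7 bp upstream of the H2A starts. Each H2A gene shares its peak with its H2B partner, so these are positions of 1 peak per pair. The position at 428 bp lies outside the 300 bp compared at the H2B starts. The H4 genes *Hist1h4m* and *Hist1h4n* were identical at 600 of 601 positions, with peaks at 111 and 128 bp downstream. *Hist2h2aa2* and *Hist2h2aa1* were 96.8% identical, with their nearest peaks 81 and 171 bp upstream. *Hist2h2aa2* had another peak 154 bp downstream, where 0% of the stretches occurred at a single place, whereas *Hist2h2aa1* had 1 peak. Upstream of both these starts, 28.7% of the stretches occurred at a single place, so their reads can in part be told apart. With the 9 genes left out, 45 of 58 clustered genes had a peak (77.6%, 65.3 to 86.4).

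Promoter motifs were searched on both strands from 250 bases before to 50 from the TSS on, in the histone genes and in all protein-coding genes. The letters searched for the CCAAT box were CCAAT, and those for the TATA box were TATAAA. The octamer, bound by the Oct factors, was ATTTGCAT and the GC box of the Sp1 family was GGGCGG. The cAMP response element was searched as TGACGTCA and the E2F core as TTTCCCGC. The ETS core was searched as CCGGAAG and the NRF1 core as GCGCATGC. The E-box was searched as CACGTG and the YY1 core as AAGATGGC. None of these contains another, and a match describes the letters only. CCAAT was found in 85.1% of clustered promoters, 58.3% of variant promoters and 36.0% of all promoters. It was present in all 6 H1, all 19 H2A and all 18 H2B genes and in 10 of 11 H3 genes, but in 4 of 13 H4 genes. The H3 gene without it was *Hist1h3f*. The window follows the annotated start, which for the H2B gene *Hist1h2be* lies 35138 bp or more upstream of its coding sequence. TATAAA was found in 55.2% of clustered promoters and in 14.4% of all promoters, and in 7.91% of all protein-coding promoters with a peak. The octamer was found in 22.4% of clustered promoters, all of them H2A (7) or H2B (8) genes, and in 1.74% of all promoters. *H3f3b* was the single variant gene with an octamer.

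Of the motifs more frequent in bound promoters than in all promoters, 4 were absent or found once in the clustered genes and the others were not. CCAAT was among the others, in 85.1% of clustered, 37.4% of bound and 36.0% of all promoters. CCGGAAG stood in 19.0% of all protein-coding promoters with a peak and 9.26% of all promoters, but in the clustered genes only in *Hist1h1e*, where it appears in the sequence above. CACGTG, GCGCATGC and AAGATGGC were in 9.25%, 5.02% and 5.88% of bound promoters and in 0 of the 67 clustered genes, and AAGATGGC was in 1 variant gene, *H3f3a*. GGGCGG was in 46.3% of clustered, 56.1% of bound and 37.2% of all promoters. TGACGTCA was in 5.97% of clustered, 2.99% of bound and 1.86% of all promoters. The E2F letters were in 4.48% of clustered promoters, which are 3 genes, all H4, and in 2.14% of bound and 1.21% of all promoters. Clustered genes with and without a peak held CCAAT in 85.2% and 84.6%, GGGCGG in 46.3% and 46.2%, TATAAA in 57.4% and 46.2% and the octamer in 20.4% and 30.8%. TGACGTCA was in 4 clustered genes with a peak and the E2F letters in 3, and both were in 0 of the 13 without. With 13 genes in the smaller set, these shares are a description only.

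**Figure D5:**
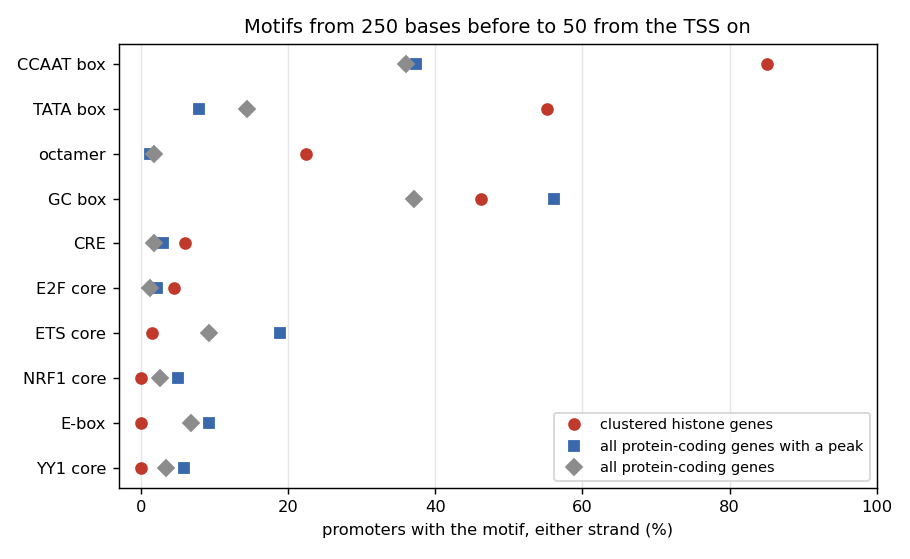
Percentage of promoters with each motif on either strand (x axis), from 250 bases before to 50 from the TSS on, in clustered histone genes (circles), all protein-coding genes with a peak (squares) and all protein-coding genes (diamonds). CCAAT, TATA and octamer matches were in 85.1%, 55.2% and 22.4% of the clustered genes, whereas the ETS, NRF1, E-box and YY1 letters are at or near 0 in them.

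The genes that serve histone supply were examined with a list of their own. All 13 genes of histone transcription and mRNA processing had a peak, centered between 230 bp upstream and 35 bp downstream of a TSS with a median of -62 bp. *Npat*, the cyclin E-CDK2 substrate that activates clustered histone genes, had its peak 227 bp upstream. *Hinfp*, a zinc finger factor of H4 promoters, had its peak 175 bp upstream, *Casp8ap2*, the processing factor FLASH, 230 bp upstream, and *Slbp*, which binds the mRNA stem-loop, 98 bp upstream. All 18 histone chaperone and deposition genes found in the annotation under their listed symbol also had a peak, with a median of -18.5 bp, among them *Chaf1a* and *Chaf1b* of CAF-1, *Asf1a* and *Asf1b*, and the H3.3 chaperones *Hira*, *Daxx* and *Atrx*. These counts stand beside the 39.6% of all protein-coding genes and the 69.5% of CpG-rich genes without a test.

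Histone symbols that the annotation lists as pseudogenes were left out of the counts. Of 10 such entries, 4 had a peak within 1 kb: *H1f0*, a linker variant, with its nearest peak 317 bp upstream, *Hist1h2aj* at 22 bp downstream, *Hist2h3c2* at 20 bp upstream and *Hist3h2bb-ps* at 114 bp upstream. *H1f0* is listed as protein-coding in the RefSeq table of a later mouse build. *Hist1h2aj* shares its peak with *Hist1h2bm*, whose TSS is farther from it.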

How the data were processed

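Reads from the anti-BAP1 sample and the anti-FLAG sample (ChIP-Seq, paired-end, 50 bp) were mapped by the authors to mm9 with Bowtie 1.0.0, and peaks were called with MACS 1.4.2 against input DNA of the same cells. The authors deposited 1 list with the start and end of each peak and a name (coordinates, unit other), with no score, signal or read count. The peak threshold, the rule that joined both samples and the treatment of reads with several matches are not given in the sources used here, and each can change which histone genes have a peak. Columns of per-sample values with no matching sample numbered 0.

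Peaks were placed on GENCODE M1, of the same build. Counts, Wilson and Newcombe intervals (95%), CpG ratios, motif matches and the uniqueness of 50-base stretches were computed with Python 3.11.15, numpy 2.4.6, scipy 1.17.1 and pysam 0.24.0. On simulated data, distances and window counts were tested against a direct search over all peaks, and merging against bedtools 2.31.1. A gap of over 100 kb split loci.

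The members, gene lists and motifs were chosen with earlier results of these data known. Named were all variant genes, clustered genes without a peak, genes of pairs on 1 peak, those with most peaks, those with the farthest nearest peak, and 4 regulators of histone supply. *Hist1h3h*, *Hist1h3b*, *Hist1h2bm*, *Hist1h4i* and *Hist1h1e*, the copies, *Hfe*, *Gm17658*, *Hist1h4d* and *Trim17*, and the chaperones given as examples, were chosen after their values were seen. The alternatives were windows of 500 bp, 2 kb and 5 kb, the peak edge, 1 TSS per gene, coding transcripts only, peaks within 500 bp merged, members left out or shared peaks counted jointly, and, added after seeing the data, the coding start. In the alternative with 1 TSS per gene, the start of the longest transcript was taken.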

Additional observations from a re-analysis of the deposited data

How the results depend on the processing

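Of 11 alternatives, 10 kept the clustered share within its counting interval (76.1% to 94.0% over all 11), and all 11 kept the variant share (41.7% to 77.8%) and the difference between the kinds (6.60 to 37.4 percentage points) within theirs. The reading of that difference was less stable, since its interval no longer included 0 in 4 of the 11: 2 kb, 5 kb, 1 TSS per gene and the coding start. The exception was the 5 kb window, with 94.0% of clustered genes. The share of all protein-coding genes was 38.6% at 500 bp, 40.4% at 2 kb, 42.5% at 5 kb, 37.0% with 1 TSS per gene and 27.3% from the coding start. From the coding start *Hist1h3f*, *H3f3a* and *H2afy* lost their peak, with 1 TSS per gene *H3f3b* did, and at 500 bp *Hist1h3f*, *Hist1h2be* and *Hist1h3c* did. At 2 kb *Hist1h2bl*, *Hist1h2ai* and *Hist1h2af* gained one, and at 5 kb 9 clustered genes did. No paired analysis was possible because the list pools both samples. No replicate could be left out for the same reason. The depth and the peak threshold are unknown, so a gene without a peak is not shown to be unbound.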
